A study of Mus musculus with 17 samples.

Results

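The right ventricle (RV) of the mouse was compared between postnatal day 3 (P3) and postnatal day 0 (P0), the first step after birth, across all expressed transcripts. The comparison takes in 6 of the 17 libraries of the study, the 3 labelled RV P3 and the 3 labelled RV P0, chosen by their titles alone. The mice of both groups were male, untreated animals of the strain given as C57Bl/6, and the labels name no altered gene. The labels place P0 before the ductus arteriosus closes and call P3 a transition. The remaining 11 libraries are the left ventricle (LV) of such mice at P0, P3 and P7 and the RV at P7. They shared the estimate of the spread, and the LV at P0 and P3 (3 libraries each) and the RV at P7 (2 libraries) were set beside the RV step. Total RNA of the ventricle was sequenced as strand-specific paired ends. The labels call the libraries biological replicates; whether 1 library is 1 animal or a pool is not stated in the labels, and the p-values measure only the spread between these libraries.

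At birth the lungs fill with air, resistance to flow through them drops and the ductus arteriosus closes, so that the RV goes from sharing the load of the body's circulation to pumping into a low-pressure lung circuit. The oxygen level of the blood rises, and milk, rich in fat, replaces the glucose and lactate of the fetal supply. In the following days heart muscle cells exchange fetal for adult forms of contractile proteins and metabolic enzymes and leave the cell cycle.

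Values are RPKM, reads scaled by transcript length and library size, for each RefSeq messenger RNA entry. The 6 libraries held 27561845 to 38964965 reads. The share of a library in the listed entries was 70.1% ± 2.38 (SD, n = 3) at P0 and 61.1% ± 1.13 at P3, so the RPKM total was lower at P3, and another scaling moves the median of all entries by over 0.1. The 3 P0 libraries lay between -26.0 and -17.3 and the 3 P3 libraries between 19.4 and 23.6 on the first principal component of these 6 libraries (68.4% of their variance). The P0 library of replicate 1 stood apart from the other P0 libraries on the next component (-18.1, against 14.0 and 7.54, with 14.4% of the variance). It held the most globin RNA and, of the P0 libraries, the least Myh6, Myom2 and Ckmt2. The entry NM_008710 stood at 2.99, 14.7 and 9.88 RPKM in P0 replicates 1 to 3 and at 9.19, 0.142 and 0.163 in P3 replicates 1 to 3. P3 replicates 2 and 3 thus stood apart from the other 4 RV libraries at this entry, as did the LV P3 libraries of the same numbers (0.128 and 0.146, against 14.6 in replicate 1). At P7 the entry was at 7.26 and 0.205 RPKM in the RV and at 3.19, 0.174 and 0.185 in the LV. None of the P0 libraries was near 0, so in P3 replicates 2 and 3 whatever sets them apart at this entry cannot be told apart from age; the labels give 1 strain name for all libraries. Counts or log2 changes without these P3 libraries are given for some lists and genes only. Genes of ventricular muscle were abundant at both ages, and the adult-type contractile list summed to 37734 to 47715 RPKM at P0 and 34644 to 37135 at P3. Libraries of the same replicate number were not paired across ages.

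The test took in 10668 entries that reached 1 RPKM in 2 or more of the 17 libraries, and 3332 of them (31.2%) changed between P0 and P3 at an adjusted p under 0.05 (limma, Benjamini-Hochberg over all entries). Among these, 1037 (9.72%) rose and 2295 (21.5%) fell. A change of 2-fold or more, on the log2(RPKM + 1) scale used throughout, was reached by 140 of the entries that rose and 167 of those that fell. The 3 libraries of each age did not overlap for 1411 entries that were higher at P3 (13.2%) and 3205 that were lower (30%). The excess of falls rests on the scaling. With the upper quartile of each library made equal 1856 entries rose and 1504 fell, so that 44.8% of calls were falls in place of 68.9%; with equal RPKM totals 2543 rose and 921 fell, or 26.6% falls. The median log2 change of all entries was -0.09 as deposited, 0.02 after upper-quartile scaling and 0.12 with equal totals. All 1037 entries that rose as deposited also rose under both other scalings, 1504 and 921 of those that fell also fell under the respective scaling, and 0 were called in opposite directions. Without P3 replicates 2 and 3, which leaves 1 P3 library that is assumed to vary like the other groups, 605 entries rose and 907 fell. Below, ± after a log2 change is the SE, ± after RPKM is the SD over 3 libraries, values in a series run from replicate 1 to 3, and folds are ratios of mean RPKM. Adding 1 RPKM before the logarithm understates the change of low genes. Counts of genes use, for each gene, its tested entry with the highest mean. The counts of called list members below are to be read beside the shares of all entries, 9.72% that rose and 21.5% that fell as deposited. A gene is named with its number of entries where it has several, since its reads may be shared among them and 1 entry is not a total of its gene.

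Genes of lipid use and of mitochondria were among those with the largest rises. Ucp3, a mitochondrial uncoupling protein of muscle (chromosome 7, 100472991 to 100486432 on GRCm38), went from 0.183, 0.110 and 0.225 RPKM to 20.1, 33.4 and 27.1 RPKM (log2 change 4.54 ± 0.17, adjusted p = 3.56e-13). Its P0 values rest on 9 to 20 reads per library. Fbp2, the muscle fructose bisphosphatase, which runs against glycolysis, went from 0.0866, 0.0696 and 0.362 to 14.7, 15.98 and 16.3 RPKM (log2 change 3.84 ± 0.11, adjusted p = 1.63e-15). Angptl4, a secreted inhibitor of lipoprotein lipase, was at 3.39, 3.304 and 6.14 RPKM at P0 and at 53.7, 56.6 and 64.4 at P3 (log2 change 3.53 ± 0.19, adjusted p = 9.97e-11). The mitochondrial carrier family gene Slc25a34 rose 20.4-fold (log2 change 3.50 ± 0.14, adjusted p = 1.38e-12), and the stearoyl-CoA desaturase gene Scd4 13.2-fold, from 4.93 ± 0.805 to 65.2 ± 7.65 RPKM (3.48 ± 0.12). The largest rises and falls were picked among called genes whose P0 and P3 libraries do not overlap, so the lack of overlap follows from the choice. In these 5 genes the gap between the ages was wide. Others among the 12 largest rises were Lgals4, a galectin (2.59 ± 0.22), Pdk4, described below, the secretoglobin gene Scgb1c1 (2.52 ± 0.26), the membrane-bound carbonic anhydrase gene Car4 (2.47 ± 0.27), the alpha-tubulin gene Tuba8 (2.42 ± 0.23) and Paqr9 (2.37 ± 0.19).

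**Figure D1:**
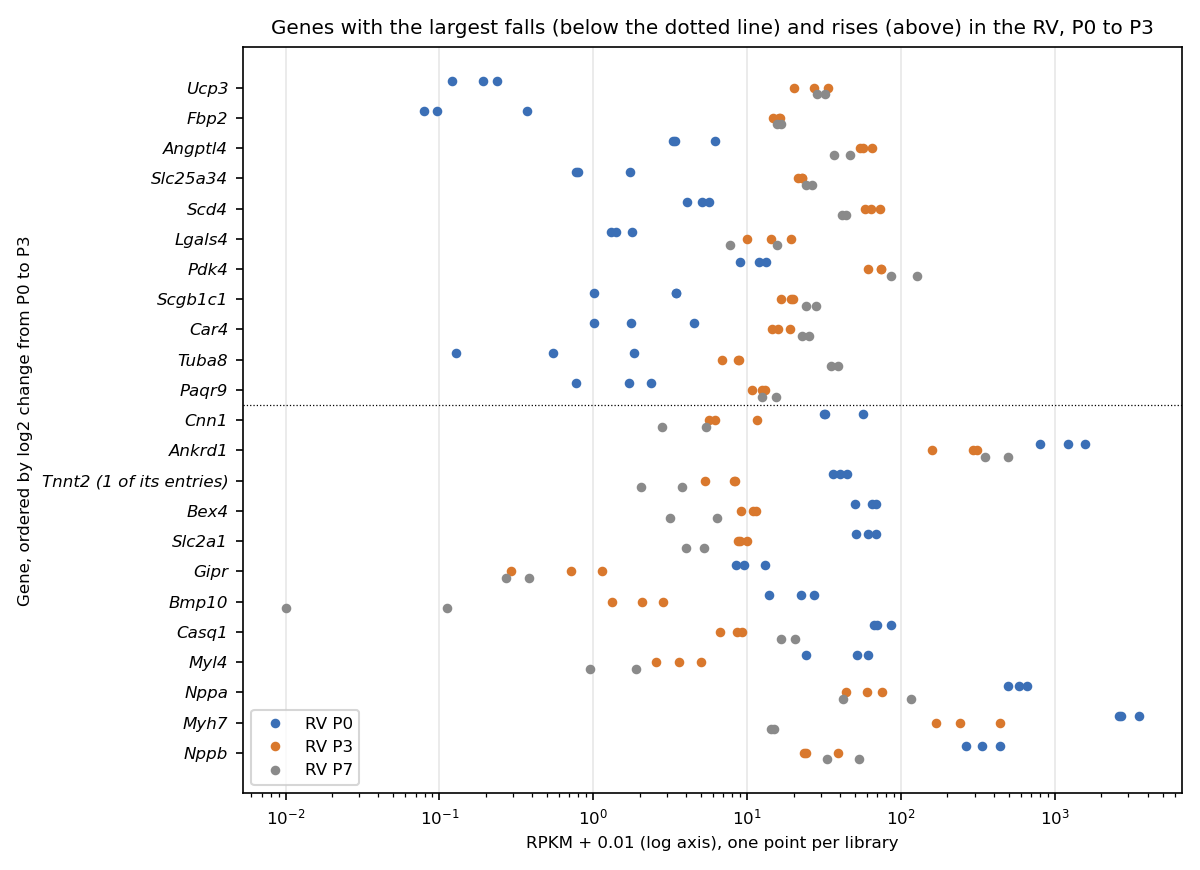
RPKM in each RV library (log axis, 0.01 added so that 0 can be drawn) for the 12 genes with the largest falls, below the dotted line, and 11 of the 12 with the largest rises, above it; colours mark the age and each point is 1 library. The genes were picked among called genes whose P0 and P3 libraries do not overlap. The gap between blue (P0) and orange (P3) points thus follows from the choice. The P7 points are shown for reference.

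Fetal-type contractile and stress genes fell. Of 14 tested genes of this list 12 fell and 1 rose (Tagln, which also marks smooth muscle), where 21.5% of all entries fell and 9.72% rose, and the list median was -1.88. Myh7, the slow beta-myosin heavy chain of the fetal ventricle (chromosome 14, 54970684 to 54994626), stood at 2626, 2700.0 and 3533 RPKM at P0 and 442, 168 and 239.7 RPKM at P3, a 10.4-fold lower mean (log2 change -3.48 ± 0.36, adjusted p = 6.68e-07). The natriuretic peptide gene Nppb (chromosome 4, 147985786 to 147987205), which heart muscle makes more of when stretched, was at 265, 336 and 441 RPKM at P0 and 39.2, 23.3 and 23.9 at P3 (log2 change -3.56 ± 0.27, adjusted p = 9.74e-09). Its neighbour Nppa, the atrial natriuretic peptide (chromosome 4, 148000722 to 148002074), was at 660.1, 497 and 581 and 74.8, 43.8 and 60.1 RPKM (log2 change -3.28 ± 0.29, adjusted p = 7.57e-08). The lowest P0 library of each of these 3 genes held several times the RPKM of the highest P3 library. Ankrd1, a stretch-responsive sarcomere and nuclear protein, fell from 805, 1215 and 1572 to 310.0, 159 and 294 RPKM (log2 change -2.24 ± 0.27, adjusted p = 4.9e-06). The light chains of the atrium and fetal ventricle fell with them, Myl4 from 45.8 ± 19.1 to 3.72 ± 1.23 RPKM (log2 change -3.24 ± 0.27, adjusted p = 3.98e-08) and Myl7 from 427 ± 92.5 to 110.1 ± 27.8 RPKM (log2 change -1.95 ± 0.31, adjusted p = 0.000103). Both are also atrial markers, of which 5 of 12 tested genes fell and 2 rose (Kcnk3 and Clu), and Nppa and Bmp10 are in that list too. The summed RPKM of the atrial list was 1221 to 1665 at P0 and 477 to 508 at P3, and the part of atrial tissue in the falls was not tested. In bulk tissue fewer cells of a type and less RNA per cell cannot be told apart. Casq1, the calsequestrin of fast skeletal muscle, fell 9.05-fold, from 69.8, 85.5 and 66.2 to 8.57, 6.602 and 9.31 RPKM (log2 change -3.03 ± 0.17, adjusted p = 1.43e-10). Cnn1, the calponin of smooth muscle and of fetal heart muscle, fell from 56.5, 31.3 and 31.98 to 11.5, 5.61 and 6.21 RPKM (log2 change -2.23 ± 0.25, adjusted p = 2.08e-06). Tnni1, slow skeletal troponin I (1 of 2 entries), fell from 322 ± 39.2 to 213 ± 23.5 RPKM (log2 change -0.59 ± 0.16, adjusted p = 0.00707), a call that equal totals ended (adjusted p = 0.0591). Without P3 replicates 2 and 3 the log2 change of Tnni1 was -0.46. Other genes among the 12 largest falls were Gipr, the receptor of an incretin hormone (-2.74 ± 0.17), Bex4 (-2.44 ± 0.18) and 1 of the 9 Tnnt2 entries, NM_001130174 (-2.33 ± 0.28).

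Adult-type contractile genes did not share a direction. The lowest of the list was the Tnnt2 entry given above, 1 of the 9 of its gene. Of 17 tested genes 6 rose and 5 fell, with that entry among the falls. Upper-quartile scaling made this 7 and 2, and leaving out P3 replicates 2 and 3 made it 3 and 1. Myh6, the fast alpha-myosin heavy chain of the adult mouse ventricle (1 of 2 entries), was at 21.9, 61.4 and 29.4 RPKM at P0 and 99.3, 76.4 and 79.4 at P3 (log2 change 1.28 ± 0.27, adjusted p = 0.00145). Myom2, a protein of the sarcomere's M-band, was at 36.8, 100 and 95.9 RPKM and 148, 194 and 150.2 RPKM (log2 change 1.19 ± 0.27, adjusted p = 0.00225). In both genes every P3 library lay above every P0 library, and P0 replicate 1 was the lowest. Tcap, the titin cap of the Z-disc, was at 65.6, 58.9 and 59.5 RPKM and then at 107, 110.1 and 111 (log2 change 0.83 ± 0.19, adjusted p = 0.00229). Ppp1r1b, a phosphatase inhibitor gene that lies near Tcap on chromosome 11 and shares its name with a long noncoding RNA studied by the authors, moved the other way, from 31.6, 25.5 and 20.04 to 8.96, 9.49 and 8.85 RPKM (log2 change -1.38 ± 0.15, adjusted p = 8.43e-07). The noncoding RNA itself was not analysed here. Actc1, cardiac alpha-actin, fell from 14041 ± 2811 to 7429 ± 942 RPKM (log2 change -0.91 ± 0.17, adjusted p = 0.000503). The calls of Myom2, Tcap and Actc1 were lost without P3 replicates 2 and 3 (adjusted p = 0.0793, 0.063 and 0.0547), with log2 changes of 1.06, 0.80 and -0.75 in that fit. Tnni3, adult cardiac troponin I, was at 1962, 2634 and 2403 RPKM and 2819, 2739 and 2989.7 RPKM and was not called (log2 change 0.30 ± 0.12, adjusted p = 0.0711), though it was after upper-quartile scaling (adjusted p = 0.0343) and without P0 replicate 2 (0.0292). The ventricular light chain gene Myl2 stayed the most abundant of the list, at 16752 ± 1610.1 RPKM at P0 and 15380.4 ± 327 at P3 (log2 change -0.12 ± 0.13, adjusted p = 0.54).

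Genes of calcium storage and of ion channels were higher where they changed, with exceptions. Of 12 tested calcium-handling genes 5 rose and 2 fell; without P0 replicate 3, 3 rose. Atp2a2, the calcium pump of the sarcoplasmic reticulum, was at 54.5, 70.2 and 67.8 RPKM at P0 and 123, 112 and 115 at P3 (log2 change 0.86 ± 0.12, adjusted p = 3.59e-05). Hrc, a calcium-binding protein of the same store, rose from 75.8 ± 14.99 to 119.7 ± 1.39 RPKM (0.67 ± 0.12), and Pln, the pump's inhibitor phospholamban (1 of 2 entries), from 7.95 ± 1.16 to 12.4 ± 1.74 (0.58 ± 0.11). The sodium-calcium exchanger Slc8a1 (1 of 2 entries) fell (-0.68 ± 0.12). Of 16 tested genes for ion channels and gap junctions 7 rose, 0 fell, or 4 and 0 without P3 replicates 2 and 3. The pacemaker channel gene Hcn2 was at 0.465, 0.695 and 0.509 RPKM and then at 3.25, 4.34 and 3.69 (log2 change 1.61 ± 0.14, adjusted p = 6.33e-08). Kcnj11, the pore of the ATP-sensitive potassium channel (1 of 2 entries), rose from 2.32 ± 0.336 to 3.999 ± 0.572 RPKM (0.59 ± 0.11). Atp1b1, a beta subunit of the sodium pump, fell from 191 ± 17.2 to 111 ± 6.33 RPKM (-0.78 ± 0.09).

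Within pairs of related genes the balance moved in most cases toward the form known from the adult heart or muscle. Of 24 pairs, 23 had both genes above 0 in all 6 libraries. In 19 of these every P3 ratio of the later to the earlier form lay above every P0 ratio, in 2 it lay below and in 2 the ages overlapped. A higher ratio does not show that the later form itself rose. The later forms Ldhb and Hk2 fell as deposited, calls that equal totals ended (limma, adjusted p = 0.0814 and 0.271). Ryr3, the earlier form paired with Ryr2, was under the expression filter. The ratio of Myh6 to Myh7 was 0.00835, 0.0228 and 0.00831 at P0 and 0.225, 0.454 and 0.331 at P3, so that Myh7 still exceeded Myh6 in every P3 library. At P7 the ratio was 4.92 and 4.67. The ratio of Slc2a4 to Slc2a1, the insulin-responsive and the basal glucose transporters, went from 0.421, 0.700 and 0.504 to 4.02, 3.24 and 3.61. Slc2a4 itself was not called (log2 change 0.06 ± 0.13, adjusted p = 0.758), and Slc2a1 fell as given below. Pdk4 over Pdk1, kinases that switch off pyruvate dehydrogenase, went from 0.189, 0.125 and 0.163 to 1.77, 1.91 and 2.004. Muscle-type over general forms were higher at P3 in other pairs too. Pgam2 over Pgam1, phosphoglycerate mutases, ranged from 2.13 to 3.15 at P0 and from 7.23 to 7.52 at P3. The cytochrome oxidase subunit ratio Cox6a2 over Cox6a1 ranged from 1.35 to 2.47 at P0 and 4.201 to 4.69 at P3, and that of Cox8b over Cox8a from 0.786 to 1.01 and 1.896 to 2.28. The ADP/ATP carriers Slc25a4 over Slc25a5 ranged from 2.71 to 3.42 at P0 and 4.44 to 5.12 at P3. In the mutases and the carriers the muscle form itself was not called higher: Pgam2 fell (-0.53 ± 0.11) and Slc25a4 was at 0.01 ± 0.12 (adjusted p = 0.956). The carnitine palmitoyltransferases went the other way, with Cpt1b over Cpt1a at 0.751, 0.979 and 0.864 at P0 and 0.495, 0.458 and 0.459 at P3. Cpt1a, the liver-type form, rose from 19.95 ± 3.66 to 43.2 ± 1.101 RPKM (log2 change 1.09 ± 0.12, adjusted p = 2.04e-06). The muscle form Cpt1b was at 16.999 ± 1.66 and 20.3 ± 1.41 RPKM and was not called (0.25 ± 0.11), though it was after upper-quartile scaling (adjusted p = 0.00524). Sodium pump subunit Atp1b1 over Atp1b3 was the other pair that moved down.

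**Figure D2:**
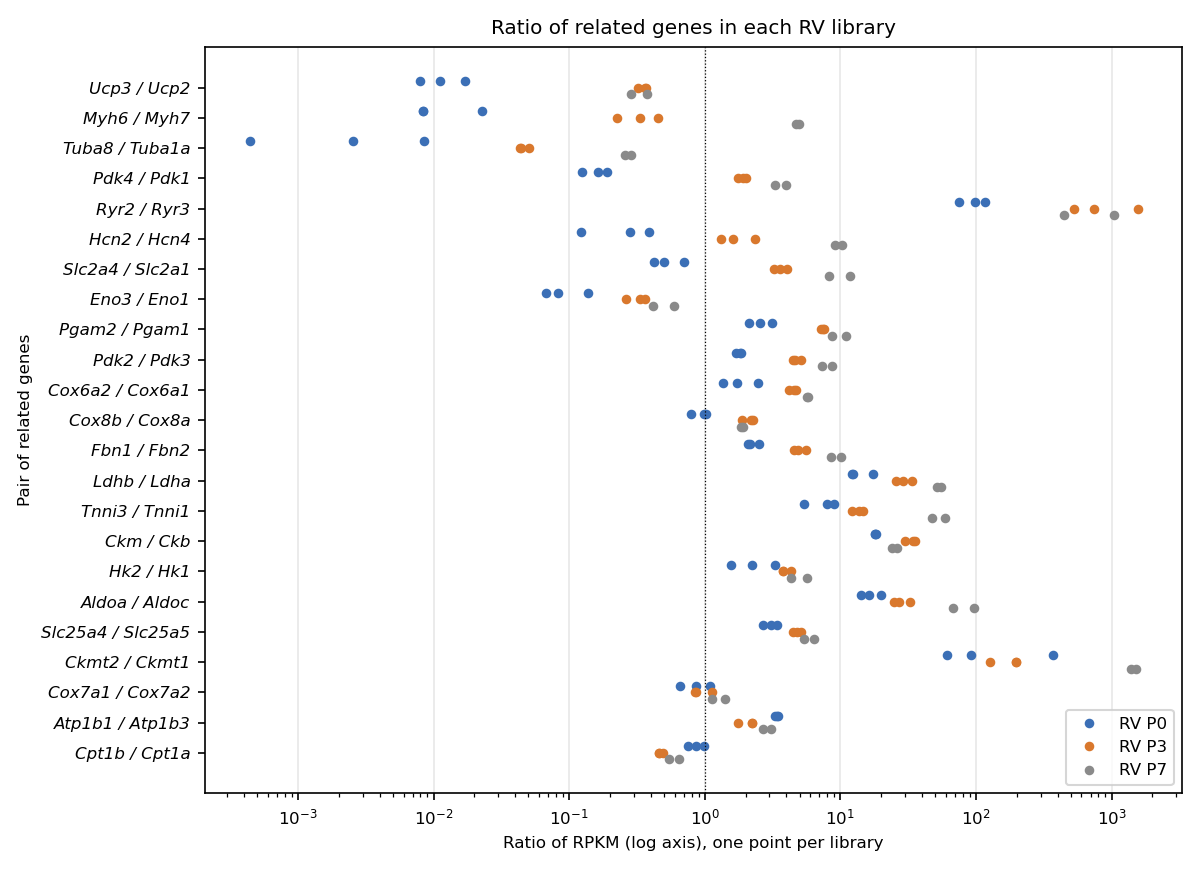
Ratio of RPKM (log axis) between the members of 23 pairs of related genes in each RV library, written as later over earlier form; colours mark the age, each point is 1 library and the dotted line is a ratio of 1. Orange points (P3) lie to the right of the blue points (P0) in 19 pairs and to the left for Cpt1b over Cpt1a and Atp1b1 over Atp1b3.

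Fatty acid oxidation genes rose broadly. Of 29 tested genes of fatty acid uptake and oxidation 22 rose and 2 fell, with a median of 0.88, and 27 rose and 2 fell after upper-quartile scaling. Ech1, an auxiliary enzyme of beta-oxidation, was at 183, 167 and 201 RPKM at P0 and 753, 787 and 748 at P3 (log2 change 2.05 ± 0.09, adjusted p = 3.2e-12). The fatty acid transporter gene Slc27a1 went from 5.62, 6.698 and 8.22 to 27.7, 30.8 and 24.1 RPKM (log2 change 1.87 ± 0.13, adjusted p = 3.5e-09). The P0 and P3 values of both genes are tight and far apart. Acot2, a mitochondrial acyl-CoA thioesterase, rose from 25.8 ± 4.55 to 80.1 ± 13.3 RPKM (1.60 ± 0.14), and Decr1, an enzyme for unsaturated fatty acids, from 35.7 ± 1.72 to 106 ± 5.52 (1.54 ± 0.08). The members that fell, Echs1 and Acadsb, were at log2 changes of -0.43 and -0.45; they act in short-chain and branched-chain steps. Of 17 tested targets of the lipid-sensing PPAR receptors and lipid storage genes 13 rose and 1 fell. Pdk4, a PPAR target that shifts the heart from glucose to fat (chromosome 6, 5483351 to 5496278), was at 13.3, 8.96 and 11.98 RPKM and 60.5, 73.98 and 73.9 RPKM (log2 change 2.52 ± 0.16, adjusted p = 9.06e-10). Ucp2 rose from 14.5 ± 1.67 to 75.5 ± 14.2 RPKM (log2 change 2.30 ± 0.13, adjusted p = 3.82e-10). The member that fell was G0s2, an inhibitor of lipolysis (log2 change -1.33). Cidea, a lipid droplet protein also used as a brown fat marker, rose from 11.6 ± 1.89 to 32.1 ± 2.601 RPKM (log2 change 1.40 ± 0.11, adjusted p = 1.3e-08). Genes of lipid synthesis moved the other way: of 20 tested cholesterol and fatty acid synthesis genes 12 fell and 1 rose (median -0.40). With equal totals 5 of them fell (median -0.22), where 921 of all 10668 entries fell. The desaturase gene Scd2 fell from 135, 145 and 105 to 49.99, 54.6 and 48.1 RPKM (log2 change -1.30 ± 0.11, adjusted p = 3.5e-08), while its relative Scd4 rose as given above. The member that rose was Acacb (13.9 ± 0.409 to 25.98 ± 1.72 RPKM, 0.86 ± 0.12), the acetyl-CoA carboxylase whose product blocks fatty acid entry into mitochondria.

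Glucose uptake and glycolysis genes fell. Of 25 tested genes 20 fell and 2 rose (median -0.97), and 19 fell and 3 rose after upper-quartile scaling. Slc2a1 (chromosome 4, 119108745 to 119137330) was at 61.02, 50.8 and 68.3 RPKM at P0 and 8.74, 8.91 and 9.896 at P3 (log2 change -2.58 ± 0.13, adjusted p = 3.3e-11). Pgam1 was at 211, 189 and 248 RPKM and 52.1, 50.2 and 52.9 RPKM (log2 change -2.03 ± 0.12, adjusted p = 5.9e-10). Their P0 libraries all held several times the RPKM of the P3 libraries. Along the pathway the enolase Eno1 fell (-1.56 ± 0.15), as did the lactate dehydrogenase subunit Ldha (1 of 2 entries, -1.50 ± 0.21), the aldolase Aldoc (-1.49 ± 0.12), the hexokinase Hk1 (1 of 2 entries, -1.15 ± 0.12) and Pgk1 (-1.27 ± 0.10). Gapdh, often used as a reference gene, fell from 1829.8, 2328 and 2299 to 1106, 1039 and 1180.1 RPKM (log2 change -0.95 ± 0.11, adjusted p = 2.51e-06), and in all 7 of 14 common reference genes fell and 0 rose (3 rose and 5 fell with equal totals). The genes of the list that rose were Fbp2 and Gpd1, a glycerol-phosphate dehydrogenase, which went from 0.846 ± 0.304 to 5.96 ± 0.949 RPKM (1.92 ± 0.15).

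Genes of the hypoxia response fell with glycolysis. Of 14 tested genes 10 fell and 1 rose, or 6 fell without P3 replicates 2 and 3. Bnip3, a mitophagy receptor induced in low oxygen (chromosome 7, 138890836 to 138909506), was at 109, 137 and 152 RPKM at P0 and 39.4, 52.7 and 43.7 at P3 (log2 change -1.53 ± 0.17, adjusted p = 2.04e-06). Egln3, an oxygen-sensing prolyl hydroxylase that the hypoxia factors induce, was at 27.9, 47.4 and 52.7 RPKM and 15.7, 13.2 and 15.6 RPKM (log2 change -1.42 ± 0.19, adjusted p = 1.77e-05). Pdk1 fell from 71.8 ± 1.795 to 36.6 ± 2.23 RPKM (log2 change -0.95 ± 0.09, adjusted p = 8.11e-08). In all 3 genes the ages do not overlap. Epas1, which encodes the hypoxia factor HIF-2alpha and is strong in endothelium, was the member that rose, from 22.9, 16.2 and 17.4 to 33.05, 36.5 and 29.5 RPKM (log2 change 0.79 ± 0.11, adjusted p = 3.44e-05). Vegfa and Hif3a were under the expression filter.

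Hypoxia factors bind a core of ACGTG or GCGTG. Promoter sequences from RefSeq (GRCm38.p6, 250 bases before to 50 after the start of a gene) were at hand for 11 of the 14 tested hypoxia genes, in 12 promoters. ACGTG, on either strand, was in 9 of these 12 (75%), against 19.6% of all 32851 promoters and 26% of the 9975 promoters of tested genes. GCGTG was also in 9 of 12, against 32.4% and 51.4%; the motifs can overlap in neighbouring bases, and CACGTG, which holds ACGTG on both strands, was in 2 of 12 (16.7%, against 7.15% of all). These are shares of letters, with no test, and not binding sites. Of the 3 genes shown next, Bnip3 is in the hypoxia list. Pgam1 and Slc2a1 come from the glucose uptake and glycolysis list, for which no share of these cores was taken. They are examples picked for holding the cores. The 250 bases before the start are shown for 3 genes that fell and hold both cores, from 5′ to 3′ on the strand of the gene, with each match in capitals: Bnip3 (chr7:138909507-138909756, minus strand), Pgam1 (chr19:41911621-41911870, plus strand) and Slc2a1 (chr4:119108495-119108744, plus strand).
Bnip3: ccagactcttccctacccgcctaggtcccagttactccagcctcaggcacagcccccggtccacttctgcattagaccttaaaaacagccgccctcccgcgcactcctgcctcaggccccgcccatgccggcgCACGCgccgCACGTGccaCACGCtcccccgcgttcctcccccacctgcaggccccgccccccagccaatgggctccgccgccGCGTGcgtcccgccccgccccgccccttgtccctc
Pgam1: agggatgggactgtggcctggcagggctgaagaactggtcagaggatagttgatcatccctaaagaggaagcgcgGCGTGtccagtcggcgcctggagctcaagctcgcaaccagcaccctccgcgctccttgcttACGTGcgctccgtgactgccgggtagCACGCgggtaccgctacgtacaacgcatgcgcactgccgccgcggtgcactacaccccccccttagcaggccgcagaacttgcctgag
Slc2a1: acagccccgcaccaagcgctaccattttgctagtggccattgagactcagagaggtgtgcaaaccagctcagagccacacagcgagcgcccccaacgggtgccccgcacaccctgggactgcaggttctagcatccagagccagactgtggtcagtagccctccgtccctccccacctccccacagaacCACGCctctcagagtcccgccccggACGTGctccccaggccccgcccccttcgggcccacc
In Bnip3, CACGT and ACGTG overlap as CACGTG, with first bases 108 and 107 before the start; in Slc2a1 the matches begin 61 and 36 before the start. Of the genes with the largest rises, Ucp3 (chr7:100472741-100472990, plus strand) holds the core AGGTCA, bound by nuclear receptors such as the PPARs, 149 and 44 bases before its start.
Ucp3: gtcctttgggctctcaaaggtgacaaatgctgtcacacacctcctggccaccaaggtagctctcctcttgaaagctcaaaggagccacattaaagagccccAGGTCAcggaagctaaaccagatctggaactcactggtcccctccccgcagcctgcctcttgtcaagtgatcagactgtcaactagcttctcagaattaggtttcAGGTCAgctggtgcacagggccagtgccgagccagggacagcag
AGGTCA on either strand was in 5 of 29 promoters of the fatty acid oxidation list (17.2%), against 16.3% of all promoters and 12.2% of those of tested genes. The list share is thus near that of all promoters. Ucp3 is not in that list and is shown as 1 example. Its control by PPARs was not tested.

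Other mitochondrial pathways fell in part or hardly moved, and their counts shifted with the scaling. Over all entries 21.5% fell and 9.72% rose as deposited, and 14.1% fell and 17.4% rose after upper-quartile scaling. With equal totals 921 of 10668 fell and 2543 rose. The falls among tricarboxylic acid cycle and oxidative phosphorylation genes lay near these shares, so the counts show no fall particular to these pathways. Of 19 tested genes of ketone body and branched-chain amino acid use 12 fell and 1 rose, or 6 fell without P3 replicates 2 and 3. Oxct1, which lets the heart burn ketone bodies, fell from 168, 226 and 196 to 80.6, 60.2 and 86.4 RPKM (log2 change -1.37 ± 0.13, adjusted p = 2.9e-07). Bckdhb, a subunit of the branched-chain keto acid dehydrogenase, fell from 30.9 ± 4.93 to 16.4 ± 3.201 RPKM (-0.88 ± 0.13). Of 21 tested tricarboxylic acid cycle genes 6 fell and 0 rose as deposited, 3 fell after upper-quartile scaling, and 1 fell and 4 rose with equal totals. Sdhb, a succinate dehydrogenase subunit, fell from 910.4 ± 63.5 to 632 ± 10.6 RPKM (log2 change -0.52 ± 0.09, adjusted p = 0.000201). Of 32 tested oxidative phosphorylation genes 10 fell and 1 rose, 3 and 1 after upper-quartile scaling, and 2 and 2 with equal totals. The tricarboxylic acid cycle and oxidative phosphorylation medians were -0.21 and -0.16, and -0.17 and -0.20 without P3 replicates 2 and 3. The general-type subunits Cox6a1 (1319 ± 115 to 603 ± 14.4 RPKM, log2 change -1.13 ± 0.11, adjusted p = 2.34e-07) and Cox8a (912 ± 6.16 to 518 ± 42.1 RPKM, log2 change -0.82 ± 0.10, adjusted p = 8.81e-06) fell the most. Cox8b was the member that rose (0.38 ± 0.13), a call lost without P0 replicate 1 (adjusted p = 0.146) or P3 replicates 1 or 2 (0.0598 and 0.129). Of 17 tested carrier, creatine kinase and biogenesis genes 2 rose and 3 fell. Slc25a34 and Slc25a42, a carrier of coenzyme A (5.64 ± 0.645 to 17.5 ± 0.402 RPKM, 1.48 ± 0.11), rose; Ckb, the brain-type creatine kinase, fell (-1.45 ± 0.11). Ckmt2, the creatine kinase of muscle mitochondria, was at 39.7, 113 and 79.8 RPKM at P0 and 102, 81.01 and 98.9 at P3 and was not called (log2 change 0.39 ± 0.28, adjusted p = 0.319). It stood at 434 and 456 RPKM in the 2 P7 libraries.

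All 22 tested mitosis genes fell between P0 and P3, with a median of -0.93; 22 fell after upper-quartile scaling and 19 with equal totals. Ube2c, an enzyme that marks mitotic proteins for destruction (chromosome 2, 164769929 to 164772902), was at 181, 150.4 and 151 RPKM at P0 and 50.3, 39.9 and 62.8 at P3 (log2 change -1.65 ± 0.14, adjusted p = 4.36e-08). The mitotic cyclin gene Ccnb1 (chromosome 13, 100778739 to 100786486) was at 75.5, 50.96 and 60.1 RPKM and 21.4, 17.7 and 30.6 RPKM (log2 change -1.40 ± 0.18, adjusted p = 1.16e-05). The mitotic kinase gene Aurka was at 28.7, 23.99 and 25.2 RPKM and 10.95, 6.91 and 15.1 RPKM (log2 change -1.23 ± 0.20, adjusted p = 0.000155). In all 3 genes P3 replicate 2 was the lowest library and no P3 library reached the P0 range. Mki67, a general marker of cycling cells, fell from 48.5, 39.6 and 34.9 to 24.9, 25.1 and 32.7 RPKM (log2 change -0.56 ± 0.13, adjusted p = 0.00368), and equal totals ended its call (adjusted p = 0.078). Genes of the G1/S transition and DNA replication were less uniform. Of 26 tested 9 fell and 0 rose, with a median of -0.30; 5 fell with equal totals, 4 without P3 replicates 2 and 3, and 14 without P0 replicate 3. Rrm2, a subunit of ribonucleotide reductase, fell from 81.02, 77.97 and 68.7 to 35.7, 29.2 and 48.4 RPKM (log2 change -1.01 ± 0.18, adjusted p = 0.000273), and Ccne1, cyclin E1, from 9.55 ± 0.470 to 5.66 ± 0.960 (-0.67 ± 0.12). From P3 to P7, 13 of these 26 genes fell and 0 rose, while 0 of the 22 mitosis genes were called in either direction. That comparison called 267 (2.5%) of all entries higher and 1575 (14.8%) lower at P7, and it shares the P3 libraries with the first step.

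Promoters of cell cycle genes hold known motifs of the mitotic program: TTTGAA, called the cell-cycle homology region, and CCAAT boxes. Of the 22 mitosis genes 19 had promoters in the RefSeq table, 20 in all. TTTGAA on either strand was in 15 of the 20 (75%), against 17.9% of all promoters and 11.7% of those of tested genes, and CCAAT in 16 (80%), against 37.4% and 38.2%. The core GGCGC, bound by E2F factors, was in 22 of 25 promoters of the G1/S list (88%), against 36.9% and 63.8%. The 250 bases before the start are printed for the 2 mitosis genes with the largest falls, on the strand of the gene with matches in capitals, Ube2c (chr2:164769679-164769928, plus strand) and Ccnb1 (chr13:100786487-100786736, minus strand).
Ube2c: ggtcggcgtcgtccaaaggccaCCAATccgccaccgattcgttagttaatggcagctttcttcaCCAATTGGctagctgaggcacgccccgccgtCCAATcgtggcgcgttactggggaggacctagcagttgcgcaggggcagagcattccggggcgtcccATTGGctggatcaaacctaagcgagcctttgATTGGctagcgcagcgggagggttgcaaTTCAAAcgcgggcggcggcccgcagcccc
Ccnb1: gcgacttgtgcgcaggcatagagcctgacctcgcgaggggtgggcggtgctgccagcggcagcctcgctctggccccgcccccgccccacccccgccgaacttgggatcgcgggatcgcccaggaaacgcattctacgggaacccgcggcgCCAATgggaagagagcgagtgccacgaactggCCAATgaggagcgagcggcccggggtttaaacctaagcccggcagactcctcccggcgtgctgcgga
Ube2c holds 7 matches, of which TTCAAA, the reverse complement of TTTGAA, begins 29 bases before the start and the others are CCAAT boxes on either strand. Ccnb1 holds 2 CCAAT boxes that begin 99 and 67 bases before the start.

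Inhibitors of the cell cycle did not rise as a group. Of 18 tested inhibitors and p53 targets 1 rose and 3 fell, where 9.72% of all entries rose and 21.5% fell. These counts lie near those shares and show nothing particular to the list. Cdkn2d, which blocks the G1 kinases, fell from 49.7, 37.1 and 47.7 to 18.9, 15.6 and 20.98 RPKM (log2 change -1.23 ± 0.18, adjusted p = 3.69e-05), and Cdkn1c (1 of 2 entries) from 2.66 ± 1.096 to 0.759 ± 0.0910 (-1.02 ± 0.17). Gadd45a, a DNA damage response gene, rose from 1.59 ± 0.181 to 3.46 ± 0.566 RPKM (0.78 ± 0.16). Cdkn1a, the p21 inhibitor (1 of 2 entries), was at 1.06, 1.16 and 1.44 RPKM and 0.591, 0.779 and 0.786 RPKM and was not called (log2 change -0.37 ± 0.14, adjusted p = 0.0594). Its ages did not overlap. It was called lower with only the 6 RV libraries fitted (limma, adjusted p = 0.0442) and with library quality weights (0.00278). Imprinted genes of fetal growth fell in 6 of 11 cases, with Dcn, which also marks fibroblasts, the member that rose. Mest (1 of 3 entries) fell from 16.8 ± 4.26 to 6.300 ± 0.843 RPKM (-1.26 ± 0.21) and Grb10, a brake on insulin signalling (1 of 2 entries), from 22.6 ± 6.82 to 9.45 ± 0.785 (-1.14 ± 0.16). Igf2, the fetal growth factor (1 of 3 entries), was at 49.5, 23.8 and 23.3 RPKM and 14.9, 25.9 and 19.7 RPKM. P0 replicate 1 stood above the other libraries, the ages overlapped, and Igf2 was not called (log2 change -0.59 ± 0.23, adjusted p = 0.0537), though it was without P0 replicate 2, P0 replicate 3 or P3 replicate 2 (adjusted p = 0.0245, 0.0244 and 0.0227). RNA-binding genes of the fetal program fell: Igf2bp1 from 3.04, 1.94 and 2.104 to 0.707, 0.723 and 0.631 RPKM (log2 change -0.98 ± 0.12, adjusted p = 7.06e-06), Igf2bp3 from 12.6 ± 1.38 to 5.88 ± 0.185 (-0.98 ± 0.14) and the chromatin protein Hmga2 from 2.75 ± 1.64 to 0.563 ± 0.0901 (-1.18 ± 0.20). In that list 6 of 11 fell, and Rbfox1, a splicing factor of mature muscle and neurons (1 of 2 entries), rose from 0.219, 0.183 and 0.134 to 1.54, 1.19 and 1.14 RPKM (log2 change 0.95 ± 0.13, adjusted p = 2.19e-05).

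Ribosomal protein genes fell by small amounts, while genes of protein folding and stress changed in both directions. Of 22 tested cytosolic ribosomal protein genes 21 fell and 0 rose as deposited, with a median of -0.45. This count was 15 after upper-quartile scaling, 5 with equal totals and 13 without P0 replicate 1. With equal totals the list median was -0.21, and 921 of all 10668 entries fell. Rpsa went from 824 ± 131 to 549 ± 11.5 RPKM (log2 change -0.57 ± 0.11, adjusted p = 0.000408). Of 15 tested heat shock genes 8 fell and 2 rose. The small heat shock protein gene Hspb1 was at 402, 361 and 419 RPKM and 170.0, 157 and 163 RPKM (log2 change -1.26 ± 0.10, adjusted p = 1.48e-08), and the chaperone Hsp90aa1 fell from 293 ± 37.1 to 151 ± 11.1 RPKM (-0.95 ± 0.10). Of 20 genes of amino acid and unfolded protein stress 8 fell and 2 rose. The amino acid transporter gene Slc7a5 fell (8.39 ± 1.82 to 3.56 ± 0.289 RPKM, -1.03 ± 0.14), as did Mthfd2, an enzyme of mitochondrial one-carbon metabolism (-0.97 ± 0.17). With equal totals 5 fell in each of these last 2 lists. Of 18 antioxidant genes 4 rose and 5 fell, or 5 and 1 with equal totals; catalase, encoded by Cat, rose from 47.01, 48.3 and 58.3 to 94.95, 94.1 and 93.3 RPKM (log2 change 0.87 ± 0.09, adjusted p = 1.11e-06) and the extracellular superoxide dismutase gene Sod3 from 1.42 ± 0.412 to 5.47 ± 0.315 (1.43 ± 0.15). The glutathione peroxidase gene Gpx3 fell from 200.1 ± 53.2 to 107 ± 14.8 RPKM (-0.86 ± 0.16). Of 18 autophagy and lysosome genes 5 rose and 1 fell (Bnip3); 8 rose with upper-quartile scaling, 11 with equal totals and 1 without P3 replicates 2 and 3.

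Among 20 chamber and cardiac transcription factor and patterning genes 8 fell and 0 rose. Bmp10, a growth factor of the trabecular myocardium and atria (chromosome 6, 87428994 to 87434512), was at 22.2, 13.8 and 26.99 RPKM at P0 and 2.07, 1.32 and 2.83 at P3 (log2 change -2.82 ± 0.23, adjusted p = 2.87e-08). It was at 0 and 0.102 RPKM in the P7 libraries. Cited1, a transcription coregulator (1 of 4 entries), fell from 15.1 ± 4.64 to 3.86 ± 1.34 RPKM (-1.72 ± 0.20), Srf, a regulator of contractile genes, from 51.2 ± 3.65 to 26.2 ± 2.36 (-0.95 ± 0.10) and Irx2 from 7.87 ± 3.33 to 3.67 ± 1.49 (-0.90 ± 0.22). Hand1, a factor known for its role in the LV, was low in the RV at P0 (0.989, 1.11 and 1.05 RPKM, 67 to 72 reads) and lower at P3 (0.230, 0.363 and 0.0633 RPKM, 4 to 19 reads; log2 change -0.76 ± 0.16, adjusted p = 0.00172). Hand2, its counterpart in the RV, was at 47.2, 44.1 and 43.6 RPKM and 44.6, 55.9 and 46.1 RPKM (log2 change 0.11 ± 0.11, adjusted p = 0.468). The ventricular factor Irx4 was at 33.4, 30.8 and 30.5 RPKM and 33.6, 37.8 and 31.2 RPKM (log2 change 0.11 ± 0.11, adjusted p = 0.483). Hand2 and Irx4 were not called as deposited and rose slightly with equal totals (adjusted p = 0.0172 and 0.0185).

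Signalling genes moved in both directions. Over all entries 9.72% rose and 21.5% fell as deposited, and 17.4% rose and 14.1% fell with upper-quartile scaling. With equal totals 2543 of 10668 rose and 921 fell. As deposited, the immediate-early counts and the falls among growth factor, clock and Hippo, Notch and Wnt genes lay near these shares. Those counts show nothing particular to their lists. Of 19 TGF-beta and BMP pathway genes 3 rose and 6 fell as deposited, 5 rose and 5 fell with upper-quartile scaling, and 6 rose and 3 fell with equal totals. The ligand gene Bmp7 was at 30.3, 22.4 and 25.3 RPKM and 8.52, 9.33 and 7.797 RPKM (log2 change -1.49 ± 0.11, adjusted p = 1.19e-08), and the inhibitory Smad6 fell from 16.2 ± 2.403 to 10.3 ± 1.02 RPKM (-0.60 ± 0.11). Of 20 growth factor genes 4 rose and 5 fell as deposited, 5 rose and 3 fell with upper-quartile scaling, 6 rose and 1 fell with equal totals, and 5 rose and 1 fell without P3 replicate 2. The binding proteins of insulin-like growth factors diverged, with Igfbp3 falling from 37.1, 22.6 and 27.5 to 9.98, 8.89 and 9.22 RPKM (log2 change -1.51 ± 0.18, adjusted p = 4.03e-06) and Igfbp7 (1 of 2 entries) rising from 2.05, 3.16 and 2.81 to 9.35, 7.77 and 10 (log2 change 1.46 ± 0.14, adjusted p = 2.95e-07). The growth factor gene Fgf1 rose from 14.4 ± 1.86 to 27.6 ± 1.14 RPKM (0.90 ± 0.13). Of 17 Hippo, Notch and Wnt genes 4 rose and 3 fell; Notch3, the receptor of vessel mural cells, rose (0.74 ± 0.13) together with Heyl, a Notch target (0.74 ± 0.11), and Ccn2, a target of mechanical signalling, fell (-0.95 ± 0.19). Of 17 glucocorticoid and thyroid response genes 4 rose and 7 fell, or 4 and 4 with equal totals. The glucocorticoid-responsive Fkbp5 fell from 8.38, 8.92 and 7.97 to 2.87, 3.65 and 3.91 RPKM (log2 change -1.08 ± 0.11, adjusted p = 4.58e-07), and so did Klf15 (-1.06 ± 0.12) and the metallothioneins Mt1 (-1.33 ± 0.16) and Mt2 (-1.56 ± 0.19). Of 14 clock genes 6 rose and 3 fell, 7 and 1 under either other scaling, and 3 rose without P3 replicate 1; Nr1d2 rose (0.84 ± 0.13) and Per3 too (0.66 ± 0.13). The labels do not state the hour at which tissue was taken. Of 15 immediate-early genes 2 rose and 2 fell as deposited, 4 and 2 with upper-quartile scaling, and 7 and 2 with equal totals; Egr1 rose from 5.701, 6.03 and 4.23 to 9.82, 18.1 and 16.9 RPKM (log2 change 1.30 ± 0.27, adjusted p = 0.00117), not called without P3 replicates 2 and 3 (adjusted p = 0.166, likewise Gadd45a, 0.118), and Atf3 fell (-1.23 ± 0.20).

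Matrix genes and markers of fibroblasts and macrophages rose. Of 32 tested extracellular matrix genes 18 rose and 2 fell, with a median of 0.45. Eln, the gene of elastin, was at 35.01, 20.4 and 19.3 RPKM at P0 and 122, 64.5 and 79.1 at P3 (log2 change 1.79 ± 0.23, adjusted p = 9.75e-06). Col3a1, a fibrillar collagen, was at 248, 202 and 257 RPKM and 572, 409 and 561 RPKM (log2 change 1.11 ± 0.15, adjusted p = 1.89e-05). In both genes the ages do not overlap, and in Eln replicate 1 was the highest library at each age. Fbln5, an elastic fibre protein, rose from 4.73 ± 1.39 to 10.3 ± 1.997 RPKM (0.996 ± 0.17) and the laminin gene Lama2 from 14.9 ± 0.539 to 30.7 ± 4.23 (0.98 ± 0.14). Of 13 fibroblast markers 10 rose and 1 fell (Gsn, 1 of 4 entries, which many cell types make), and their summed RPKM was 726 to 943 at P0 and 1277 to 1625 at P3. Dpt, dermatopontin, rose from 68.4, 77.98 and 77.9 to 179.5, 171 and 196 RPKM (log2 change 1.27 ± 0.10, adjusted p = 1.86e-08) and Mfap5, a microfibril protein, from 17.1 ± 4.27 to 42.8 ± 4.63 (1.30 ± 0.18). Of 11 macrophage markers 9 rose and 1 fell, with summed RPKM of 71.0 to 92.9 and 112 to 149.9. C1qa, a complement component of tissue macrophages, was at 8.88, 8.49 and 6.11 RPKM and 19.2, 14.5 and 18.01 RPKM (log2 change 1.05 ± 0.15, adjusted p = 3.1e-05), and the receptor gene Cx3cr1 rose from 2.05 ± 0.640 to 5.08 ± 0.975 (1.004 ± 0.15). The member that fell, Lyve1, also marks lymphatic vessels (-0.66 ± 0.18), and its call was lost without P3 replicate 1 (adjusted p = 0.0643) and after upper-quartile scaling (0.0528). The share of the matrix rises that goes with more fibroblast RNA was not tested.

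Vessel and other cell markers changed less evenly. Of 14 endothelial markers 4 rose and 2 fell as deposited, 9 and 0 after upper-quartile scaling, and 7 rose without P0 replicate 1. Cldn5, a tight junction protein, had the largest rise of the list, with 18.5, 18.9 and 23.5 RPKM and 38.2, 41.1 and 35.3 RPKM (log2 change 0.89 ± 0.10, adjusted p = 2.09e-06). Plvap had the largest fall (log2 change -0.53), a call that upper-quartile scaling ended (limma, adjusted p = 0.0604). Of 9 mural cell markers 5 rose and 2 fell: Rgs5, a pericyte gene, rose from 39.4, 41.5 and 31.6 to 99.3, 97.8 and 89.7 RPKM (log2 change 1.34 ± 0.11, adjusted p = 2.3e-08), whereas Cnn1 and Acta2 fell, and fetal heart muscle expresses these too. Of 11 epicardial markers 1 rose and 3 fell; Aldh1a2, which makes retinoic acid, was the one that rose, from 11.2, 9.98 and 10.2 to 27.3, 21.8 and 31.5 RPKM (log2 change 1.27 ± 0.11, adjusted p = 4.77e-08). The falls of Krt8, Krt19 and Wt1 each lost their call without P0 replicate 3 (adjusted p = 0.151, 0.0966 and 0.1) or without P3 replicate 2 (0.127, 0.0883 and 0.117), and with equal totals (0.16, 0.0926 and 0.282). Of 10 valve and cushion markers 4 rose and 0 fell, Cthrc1 the most (4.62 ± 1.27 to 13.8 ± 1.24 RPKM, 1.42 ± 0.16). Of 16 antigen presentation genes 5 rose and 0 fell (9 and 0 with equal totals), or 3 rose without P0 replicate 1, P0 replicate 3 or P3 replicate 1. The proteasome subunit gene Psmb8 rose from 1.18 ± 0.455 to 3.34 ± 0.109 RPKM (1.01 ± 0.21). Of 13 Schwann cell and neuron markers 3 were tested and 2 rose: Dbh, which makes noradrenaline in sympathetic nerves, went from 0.835, 1.104 and 0.870 to 1.93, 2.75 and 2.500 RPKM (log2 change 0.81 ± 0.15, adjusted p = 0.00035; 0.0602 without P3 replicates 2 and 3). Of 14 skeletal muscle markers 4 passed the filter and 3 fell, and of 19 markers of lung, thymus, liver and brown fat 3 passed and 2 rose, Cidea and the low Ttr. Conduction system, endocardial and lymphatic markers held 0, 1 and 1 calls among 5, 6 and 4 tested genes, and lymphoid and platelet markers 1 call each (Cd79a and Pf4, higher) among 5 and 3.

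Several of these counts changed when 1 library was left out. The calls over all entries changed too, to between 771 and 1114 rises and between 1681 and 2352 falls, against 1037 and 2295 with all libraries. How far the list counts below follow those changes was not tested. Without P0 replicate 2, 6 oxidative phosphorylation genes fell in place of 10, and 4 without P3 replicate 1. The count of falling lipid synthesis genes was 7 without P0 replicate 2, and that of falling amino acid stress genes 5 without P3 replicate 2. Falling adult-type contractile genes numbered 2 without P0 replicate 3, and 3 without P0 replicate 2, P3 replicate 1 or P3 replicate 3. Rising antioxidant genes numbered 2 without P0 replicate 2 or 3 or P3 replicate 2 or 3, and rising autophagy genes 3 without P0 replicate 2 or 3 or P3 replicate 2. For TGF-beta genes 1 rose without P0 replicate 2 or P3 replicate 1 and 3 fell without P0 replicate 1, and for Hippo, Notch and Wnt genes 2 rose without P0 replicate 2 or P3 replicate 1. Falling growth factor genes numbered 3 without P0 replicate 1 or 3 or P3 replicate 3. Falling clock genes numbered 1 without P0 replicate 3 or any 1 P3 library, rising mural cell markers 3 without P3 replicate 1, and falling endothelial markers 0 without P0 replicate 1 or 3 or P3 replicate 1.

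Red cell RNA fell. Of 10 tested erythroid markers 8 fell and 0 rose, with summed RPKM of 1663 to 3639 at P0 and 580.4 to 820.5 at P3. Hbb-bt, an adult beta-globin, was at 1198, 386 and 772 RPKM and 134, 178 and 170.1 RPKM (log2 change -2.15 ± 0.27, adjusted p = 6.92e-06), and Hba-a1, an adult alpha-globin, at 1038, 605 and 889.9 RPKM and 177, 256 and 206 RPKM (log2 change -1.96 ± 0.18, adjusted p = 1.04e-07). Reads of near-identical globin genes may be split among them. P0 replicate 1 was the highest and P0 replicate 2 the lowest P0 library in both, and every P0 library lay above every P3 library. Embryonic Hbb-y was at 5.93, 0.291 and 1.51 RPKM at P0, and at P3 it was listed at 0 in 1 library and rested on 2 reads in each of the others. At P7 Hba-a1 stood at 494 and 576 RPKM, above its P3 values. The part of blood in the tissue in other results was not tested.

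**Figure D3:**
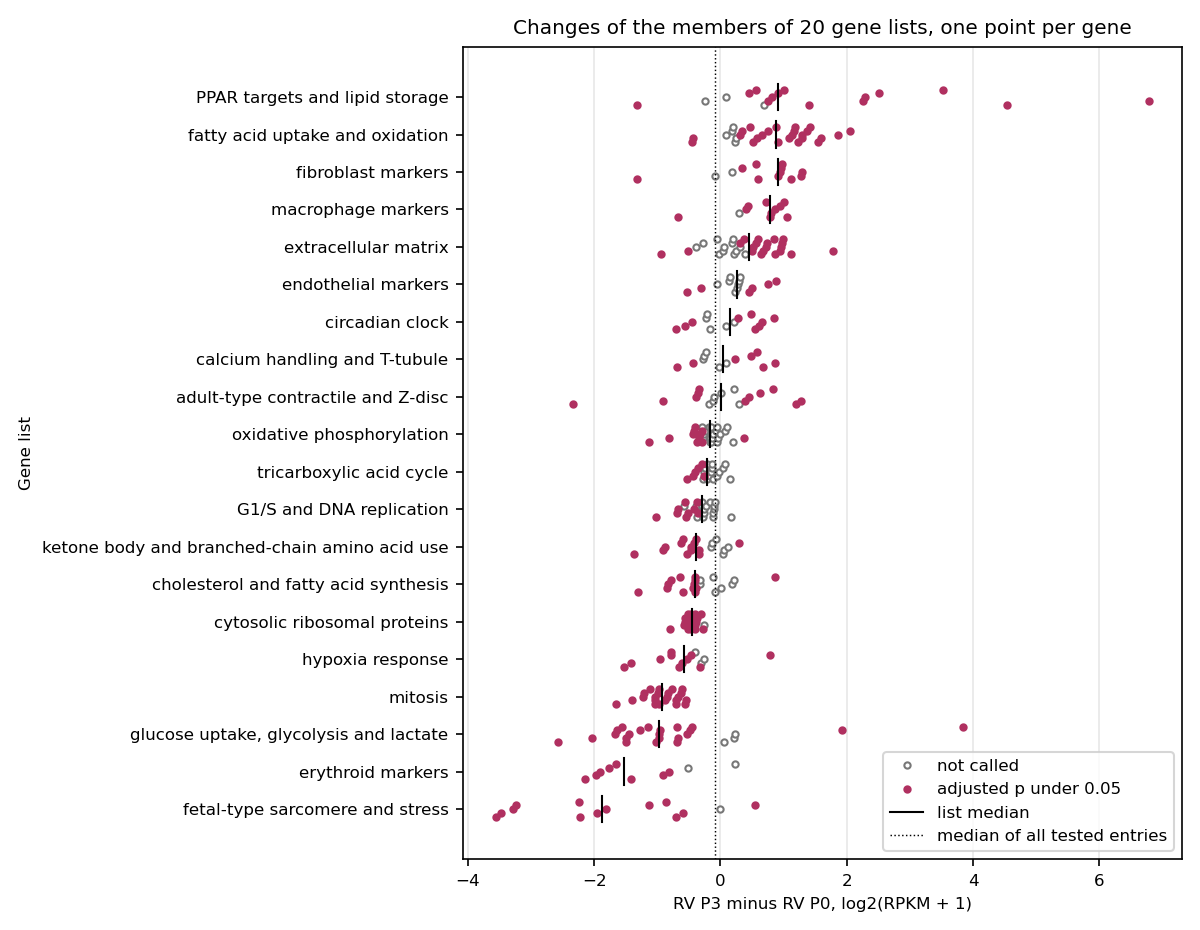
Log2 change from RV P0 to RV P3, on log2(RPKM + 1), of each tested member of 20 of the gene lists, 1 point per gene; filled points passed an adjusted p of 0.05, black bars are list medians and the dotted line is the median of all tested entries (-0.09). Fatty acid, fibroblast and macrophage lists lie mostly to the right, mitosis, glycolysis, erythroid and fetal-type lists to the left.

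The step was set beside the same step in the LV, where 774 entries (7.26%) rose and 2201 (20.6%) fell. Without pairing, limma called 0 entries as changing differently in the chambers (smallest adjusted p = 0.18), while 535 (5.01%) had an unadjusted p under 0.05. LV and RV libraries of the same age and number deviated together, and with that pairing as a block 101 entries (0.947%) were called. In 64 of these (0.6%) the RV change lay above the LV change and in 37 (0.347%) below it. The genes named here were taken from the blocked comparison after its values were seen.

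Nppb and Nppa fell further in the RV than in the LV, and Ankrd1 was called lower in the RV only. Nppb was at 176, 292 and 355 RPKM in the LV at P0 and 92.9, 64.7 and 117 at P3, and in the RV it fell from the similar level given above to a mean of 28.8. On the log2 scale the LV changed by -1.56 and the RV by -3.56, a difference of -2.00 ± 0.19 (limma with the block, adjusted p = 2.5e-05). Ankrd1 was at 563, 855 and 919 RPKM in the LV at P0 and 594, 326 and 586 at P3. It changed by -0.65 in the LV, which was not called (limma, adjusted p = 0.0806), and by -2.24 in the RV. The difference was -1.59 ± 0.12 (limma with the block, adjusted p = 9.86e-07). For Nppa the changes were -2.02 and -3.28 (difference -1.26 ± 0.28, adjusted p = 0.0431). These 3 are the members of the fetal-type list, of 14, that differed. Nmrk2, a muscle enzyme of NAD synthesis, fell in the RV from 6.84, 17.9 and 21.5 to 6.83, 4.397 and 9.09 RPKM and stood at 5.06, 10.7 and 10.2 and 10.5, 5.26 and 13.1 RPKM in the LV (difference -1.11 ± 0.15, adjusted p = 0.00165). Casq1 differed by -1.06 ± 0.15 (adjusted p = 0.00269). Myom2 rose less in the RV (1.19) than in the LV (1.91; difference -0.72 ± 0.14, adjusted p = 0.0228), to means of 164 RPKM in the RV and 165 in the LV at P3.

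Some epicardial, matrix and macrophage genes and C3 had RV changes above their LV changes. C3, the central complement protein, rose in the RV from 14.1, 6.99 and 9.05 to 41.9, 26.3 and 47.7 RPKM and was at 18.6, 7.04 and 8.49 and 12.6, 10.2 and 12.4 RPKM in the LV (difference 1.70 ± 0.18, adjusted p = 7.02e-05). Of 11 epicardial markers 5 differed, all with a higher RV change: Upk3b, Msln, Krt19, Lrrn4 and Rspo1. Upk3b, a uroplakin of the outer surface of the heart, was at 34.4, 13.2 and 27.9 RPKM and 28.1, 20.1 and 28.1 RPKM in the RV, and at 26.3, 7.99 and 18.7 RPKM and 6.07, 7.65 and 6.56 RPKM in the LV (difference 1.23 ± 0.17, adjusted p = 0.00205). The RV libraries overlap between ages, while every LV library at P3 lay below every LV library at P0. Efemp1, an elastic fibre protein (1.18 ± 0.13, adjusted p = 0.000184), and Igfbp6 (1.05 ± 0.19, adjusted p = 0.0131) were likewise called lower at P3 in the LV and not called in the RV. Gtsf1, a germ line gene, fell in both chambers, with log2 changes of -2.07 in the LV and -0.999 in the RV (difference 1.07 ± 0.23, adjusted p = 0.032). Of 32 matrix genes Col1a2, Col3a1, Col14a1, Tnc and Lox had a higher RV change and Ccn2 a lower one. Col3a1 changed by 1.11 in the RV and 0.54 in the LV (difference 0.57 ± 0.11, adjusted p = 0.0228). Of 11 macrophage markers Csf1r, Fcgr1 and Lyve1 had a higher RV change; Csf1r, the receptor that macrophages need, went from a mean of 5.14 to 9.63 RPKM in the RV and from 5.79 to 6.36 in the LV (difference 0.71 ± 0.14, adjusted p = 0.0207). Ucp2, of the lipid genes, rose more in the RV (difference 0.57 ± 0.10, adjusted p = 0.0149). None of the 25 glycolysis and 29 fatty acid oxidation genes and 1 of the 22 mitosis genes (Ube2c) were called as different between the chambers with the block, which does not show that these changes were alike.

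**Figure D4:**
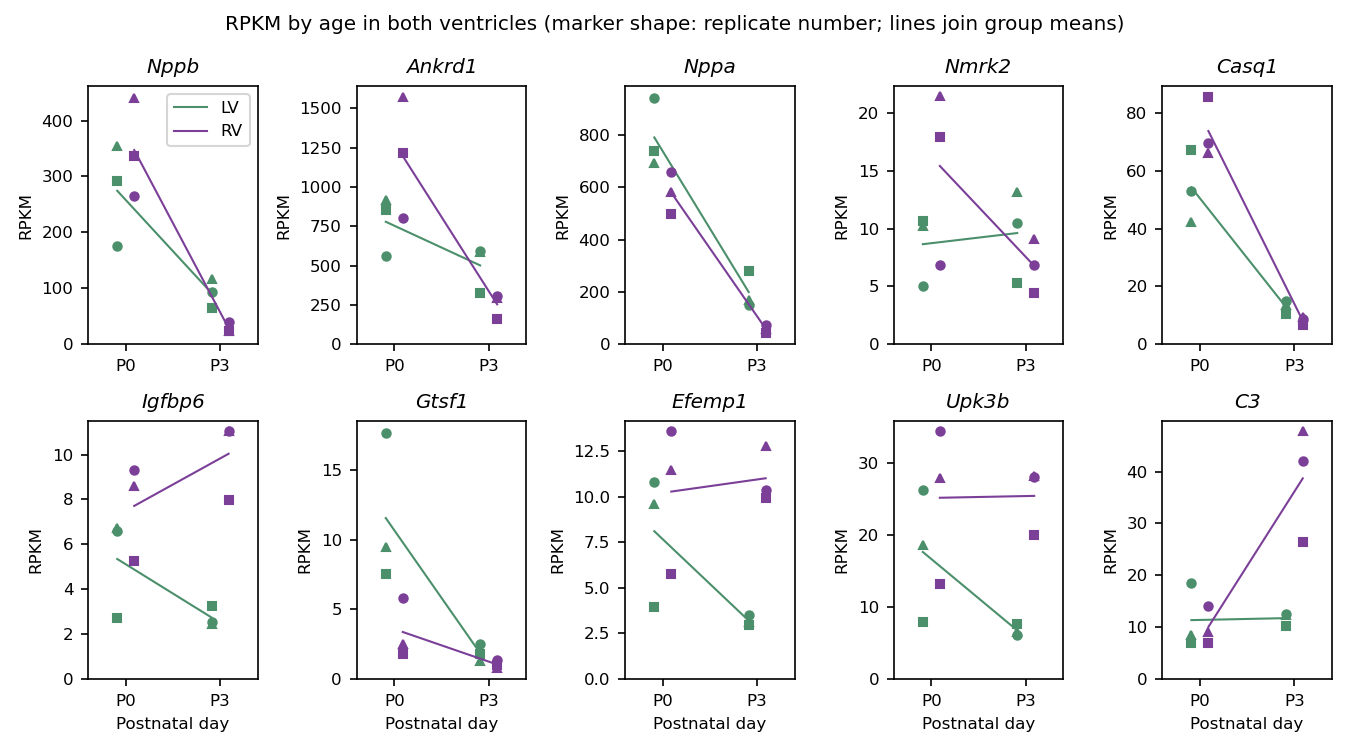
RPKM at P0 and P3 of the 10 genes with the largest differences between the chambers, in the LV (green) and RV (purple); marker shapes give the replicate number, lines join the group means and each axis starts at 0. In the upper row the RV change lies below the LV change (Nppb reaches 23.3 to 39.2 RPKM in the RV against 64.7 to 117 in the LV), and the Nmrk2 mean falls in the RV but not in the LV; in the lower row the RV means stay level or lie higher at P3 while the LV means fall or stay level, except Gtsf1, whose means fall in both.

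Beyond P3 the genes took different courses in the RV. Myh7 went on falling, to 14.8 and 14.4 RPKM in the P7 libraries (-4.07 ± 0.40, adjusted p = 4.42e-06 from P3 to P7, limma). Pdk4 rose further, to 86.3 and 127 RPKM (0.59 ± 0.18, adjusted p = 0.0292), while Ucp3 stood at 28.5 and 32.1 RPKM and was not called (0.19 ± 0.19, adjusted p = 0.473). Nppb was at 33.1 and 53.6 RPKM (0.57 ± 0.30, adjusted p = 0.165) and Ankrd1 at 353 and 498 RPKM (0.78 ± 0.31, adjusted p = 0.0782), neither called and neither back to the P0 range. Tuba8 went on rising, to 38.8 and 34.98 RPKM (2.06 ± 0.26, adjusted p = 6.23e-05), and Ckmt2, not called before, rose from P3 to P7 (2.24 ± 0.32, adjusted p = 0.00016).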

How the data were processed

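RPKM values were used as the authors deposited them, 1 value for each of 20624 RefSeq mRNA entries in each library. No header names the unit; it was inferred from the values, since 98.87% of 19625 entries gave whole reads per length (tolerance 0.02), which also gave the library sizes quoted. Alignment used STAR 2.4.0j with mm10, per the submitters' processing notes; the counting program and its strand setting were not given in the sources used here. The name table gave a symbol for 20379 entries, a GENCODE table for 76, and 169 stayed unnamed.

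log2(RPKM + 1) of entries that reached 1 RPKM in 2 or more of 17 libraries was fitted with limma 3.58.1 (trend, R 4.3.3) over 6 group means, two-sided, with Benjamini-Hochberg adjustment over 10668 entries and a threshold of 0.05. Tables and figures used Python 3.11.15, numpy 2.4.6, pandas 2.3.3 and matplotlib 3.10.9. The limma step was tested on simulated data. Named were the 12 highest and 12 lowest changes among called genes without overlap whose higher group had a mean of 5 RPKM or more, up to 4 called members per list with a higher-group mean of 1 RPKM or more, the 5 highest and 5 lowest chamber differences, pairs of related genes and a set of genes chosen by name; other genes, such as members moving against their list, were named after their values were seen. The members, the 50 gene lists and the tests were chosen with earlier results of these data known.

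Replicate numbers appear in all groups. Residuals of RV P0 and P3 libraries of the same number correlated at -0.0499, 0.0191 and 0.101, so the ages were not treated as paired. LV and RV libraries of the same age and number correlated at 0.269 to 0.587 in 8 pairs, against -0.402 to 0.0939 for 16 pairs of different numbers. Residuals of a group sum to 0, so positive values for same numbers force negative ones among the others. The 16 pairs are thus not an independent contrast. The chambers were treated as paired by that number, a choice made from the data, and both the unblocked and the blocked comparison are given. No 2 of the RV P0 and P3 libraries agreed within sampling noise, and the LV and P7 libraries were not checked in this way. Alternatives changed the scaling, the added value (0.1), the filter, the libraries fitted, the library weights and the block. Noncoding entries were not used here. Some genes that meet the naming rule are not reported here.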

Additional observations from a re-analysis of the deposited data

Results flagged for a closer look

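The change from P0 to P3 differed between the chambers for 101 transcripts when the LV and RV libraries of the same age and number were paired (limma with that block), and for 0 without pairing. The RV change lay below the LV change by the following log2 differences: -2.00 for Nppb, -1.59 for Ankrd1, -1.26 for Nppa, -1.11 for Nmrk2 and -1.06 for Casq1. It lay above the LV change by 1.70 for C3, 1.23 for Upk3b, 1.18 for Efemp1, 1.07 for Gtsf1 and 1.05 for Igfbp6. The pairing was chosen after the data were seen.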

How the results depend on the processing

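Counts of called entries between RV P0 and P3 depended on the scaling, as given above, and on the P3 libraries: 1512 were called without P3 replicates 2 and 3 (605 higher and 907 lower). Higher calls numbered 1856 with upper-quartile scaling, 2543 with equal totals, 669 with a filter of 5 RPKM in 3 libraries and 1601 with library quality weights; lower calls numbered 1504 and 921 with the respective scalings. Leaving out 1 library at a time gave 2589 to 3209 calls (771 to 1114 higher, 1681 to 2352 lower). With the replicate block across ages 3466 entries were called (1088 higher, 2378 lower), and of the 216 named genes 1, Krt8, lost its call. The chamber difference gave 7 calls with quality weights (4 above, 3 below) and 101 with the replicate block by age (64 and 37). Calls from RV P3 to P7, which has 2 P7 libraries, ranged more: 1190 with upper-quartile scaling (637 higher, 553 lower), 3887 with weights (454 and 3433), 196 without P3 replicates 2 and 3 (49 and 147), 1025 lower with equal totals, 1031 lower with no filter, and 906 to 2330 with 1 library left out (165 to 306 higher, 741 to 2024 lower). Among the 216 named genes 0 changed direction past the threshold, 40 lost their call without P3 replicates 2 and 3, 21 with equal totals, 15 with no filter and 9 with upper-quartile scaling. Pdha1, a pyruvate dehydrogenase subunit not called as deposited, had a log2 change of 0.226 with equal totals. The cause of these changes was not tested, except that 1 P3 library and fewer samples remain where libraries were left out.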
